A study of Macaca mulatta with 8 samples.

Results

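MicroRNAs (miRNAs) were compared between rhesus neural rosettes at their first passage (R-NSCP1) and the embryonic stem cells (ESC) they were derived from. The comparison took every rhesus miRNA of the deposited small RNA table, 299 with a mean of at least 10 reads per 1000000 and, under that level, 63 with the higher value in R-NSCP1 and 89 with the lower, and the 2 small RNA libraries of these stages, out of 8 libraries in the series. Both stages belong to the wild-type rhesus monkey ESC line IVF3.2. Embryoid bodies were formed without bFGF and then spread on extracellular matrix in medium with bFGF. R-NSCP1 were rosette structures picked by hand from this outgrowth. They were kept on polyornithine and laminin in N2 medium with SHH, FGF8, ascorbic acid and BDNF. ESC were grown on mouse embryonic fibroblasts whose division had been stopped. Each stage was 1 library from a sample pooled over many repeats of 1 cell line, so there was no replicate, and no test between the stages was made. The stages also differed in medium, in feeder cells and in how cells were collected, and these cannot be told apart from the stage itself.

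A miRNA is an RNA of about the length of a short primer that is cut from a hairpin and loaded into an Argonaute protein, where it represses mRNAs that pair with its seed, the bases 2 to 8. miRNAs with the same seed can repress the same sites, and miRNAs of neighbouring hairpins are often cut from the same primary transcript. The miR-302/miR-367 and miR-371/miR-373 clusters are known for their expression in pluripotent cells. miR-9, miR-124 and miR-135 are known from neural progenitors and neurons, and the let-7 family is held back in stem cells by the RNA-binding proteins LIN28A and LIN28B.

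The mature sequences below are those of the miRNAs that the comparison turns on, as the deposited table lists them in DNA letters, 5′ to 3′, with the seed in capitals. The first set shares a seed and, apart from miR-93, was at least 52.2-fold lower in R-NSCP1:
miR-302a: tAAGTGCTtccatgttttggtga
miR-302d: tAAGTGCTtccatgtttgagtgt
miR-372: aAAGTGCTgcgacatttgagcgt
miR-373: gAAGTGCTtcgattttggggtgt
miR-93: aAAGTGCTgttcgtgcaggtag
A second set shares a seed and holds members that differed in opposite directions, miR-92b higher and the other 2 lower in R-NSCP1:
miR-92b: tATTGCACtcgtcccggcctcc
miR-92a: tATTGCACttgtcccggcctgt
miR-367: aATTGCACtttagcaatggtga
The third set holds abundant miRNAs of R-NSCP1 and their relative miR-99a, all higher than in ESC:
miR-99b: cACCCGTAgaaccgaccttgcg
miR-100: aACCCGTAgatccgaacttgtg
miR-99a: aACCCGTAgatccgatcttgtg
miR-30a-5p: tGTAAACAtcctcgactggaag
The last set holds miRNAs that share a seed and differed in opposite directions:
miR-449a: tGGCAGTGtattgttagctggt
miR-34c-5p: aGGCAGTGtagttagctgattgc
miR-204: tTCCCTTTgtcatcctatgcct
miR-211: tTCCCTTTgtcatcctttgcct
miR-148b: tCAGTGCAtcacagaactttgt
miR-148a: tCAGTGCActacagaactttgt

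The table held 21341944 miRNA reads in R-NSCP1 and 10196819 in ESC. Reads were scaled to RPM, the reads that a library of 1000000 miRNA reads would hold, and a ratio is RPM in R-NSCP1 over RPM in ESC. A limit of 3 reads corresponds to 0.141 RPM in R-NSCP1 and 0.294 RPM in ESC. A value is the mean over all database entries of the same mature miRNA, which lowers the level of a miRNA with several entries in both stages. Levels were therefore compared between stages, and shares and orders of miRNAs are those of the values as deposited, which a sum over entries could change. Ratios may be affected too, since the same sequence had a ratio of 1.03 as miR-129 and 2.14 as miR-129-5p. Intervals in brackets are exact 95% intervals that cover counting error only. In a pooled culture, fewer cells of a type and less of a miRNA per cell cannot be told apart. POU5F1, the gene of the pluripotency factor OCT4, was at 1.04 FPKM in the R-NSCP1 mRNA library, against 1176 FPKM in ESC, and PAX6, a transcription factor of neural stem cells, was at 67.8 FPKM in R-NSCP1, against 0.265 FPKM in ESC. The mRNA markers thus followed the stage labels.

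A mean of at least 10 RPM over both libraries was reached by 299 miRNAs, and the others were not counted. Of the 299, 79 stood at least 2-fold above their ESC level in R-NSCP1 (26.4%), 93 at least 2-fold below it (31.1%) and 127 within 2-fold. At 4-fold, 39 were higher (13%) and 63 lower (21.1%). The median log2 ratio was -0.03, with 1 RPM added. The balance of higher and lower miRNAs depended on the scaling. It was 153 higher and 58 lower with reads as deposited, 135 and 64 with scaling to sequenced reads, and 54 and 117 when the miR-302/miR-367 cluster was left out of the column sums. The 79 miRNAs that were higher took 50.1% of the R-NSCP1 reads and 12.9% of the ESC reads. The 93 that were lower took 10.9% of the R-NSCP1 reads and 53.1% of the ESC reads.

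**Figure D1:**
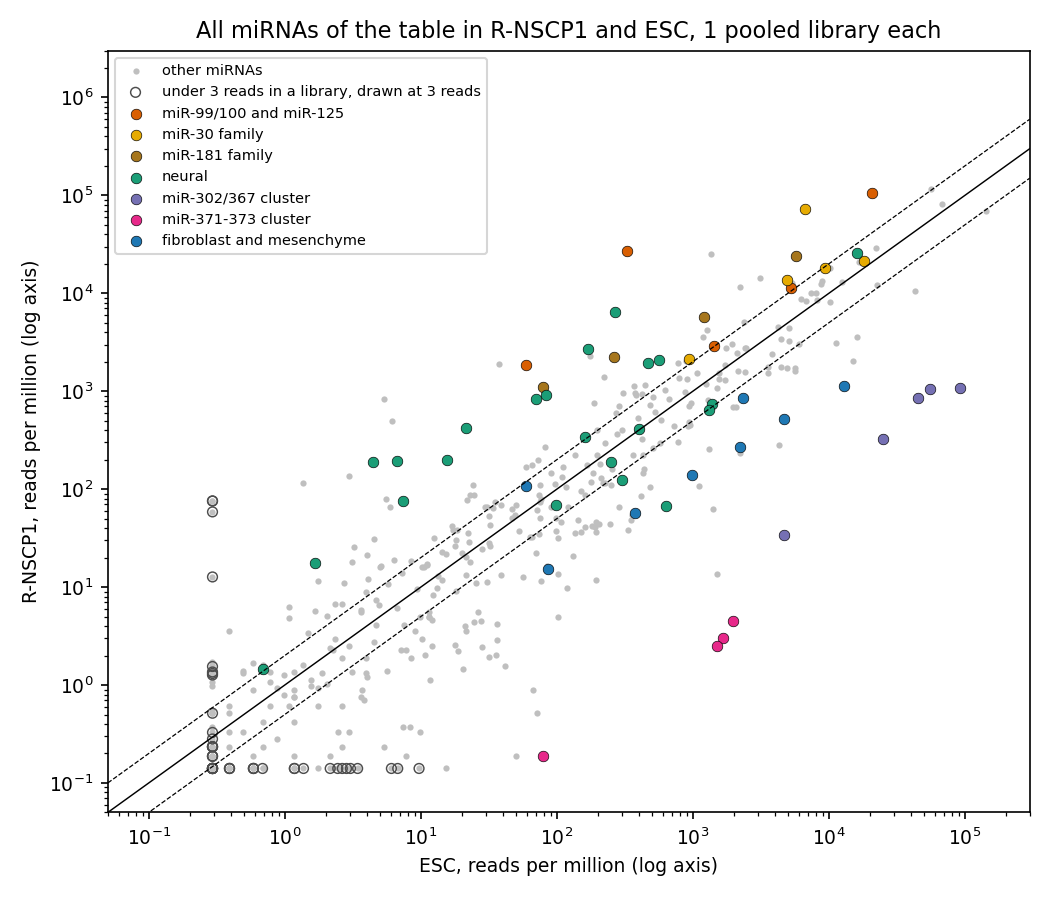
RPM of all miRNAs of the table in R-NSCP1 (vertical) against ESC (horizontal), both on log axes; each point is a miRNA, colours mark lists, the solid line is equality and the dashed lines are 2-fold. Members of the miR-302/miR-367 and miR-371/miR-373 clusters lie far below the dashed lines, and miR-100 at 26963 RPM in R-NSCP1 against 331 RPM in ESC lies far above them.

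In both libraries a few miRNAs took most of the reads. The 7 most abundant miRNAs held 50% of the reads in R-NSCP1, as did 7 in ESC, and 48 in R-NSCP1 and 52 in ESC held 90%. Of the 10 most abundant miRNAs of each library, 4 were common to both, namely miR-92a, miR-92b, miR-191 and miR-26a. miR-191 had 80820 RPM in R-NSCP1 and 67949 RPM in ESC, and miR-26a had 29337 RPM in R-NSCP1 and 22310 RPM in ESC, so both were within 2-fold. In the values as deposited, the R-NSCP1 library was led by miR-92b at 11.6% of the reads, followed by miR-99b, miR-191, miR-30a-5p and miR-92a. The order is not firm, since miR-92a, if its mean stands for 2 entries, would have 138402 RPM in R-NSCP1, above miR-92b at 116406 RPM. The ESC library was led by miR-92a at 14.3%, followed by miR-302d, miR-191, miR-92b and miR-302a. Counted by seed, the group with the miR-302 seed took 0.579% of the R-NSCP1 reads and 22.3% of the ESC reads. The miR-99/miR-100 group took 13.4% of the R-NSCP1 reads and 2.13% of the ESC reads, and the miR-30 group 12.8% of the R-NSCP1 reads and 4.01% of the ESC reads.

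**Figure D2:**
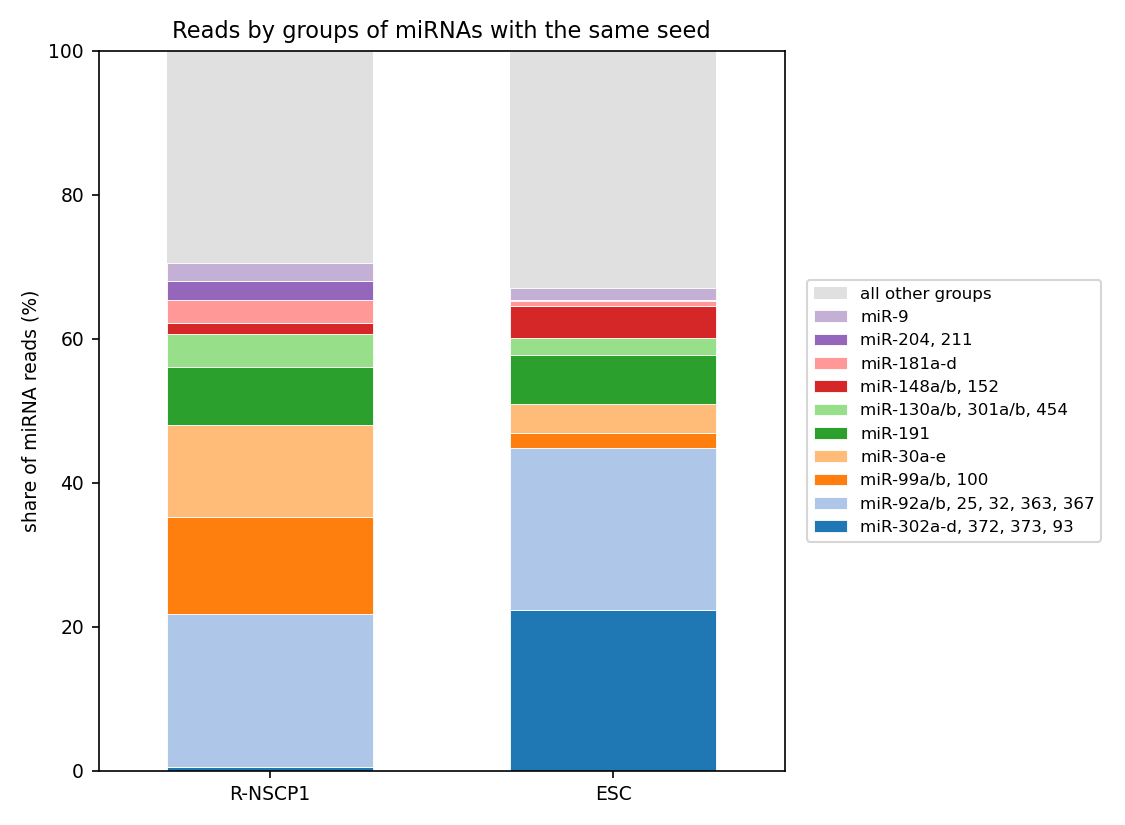
Share of all miRNA reads (vertical axis, %) taken by groups of miRNAs with the same seed in R-NSCP1 (left bar) and ESC (right bar), with 1 library a bar. The group with the miR-302 seed shrinks to 0.579% in R-NSCP1 against 22.3% in ESC, while the miR-92a/b group takes 21.2% in R-NSCP1 and 22.6% in ESC.

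All 5 members of the miR-302/miR-367 cluster, which marks pluripotent cells, were lower in R-NSCP1, against 31.1% of all counted miRNAs. miR-302d had 1068 RPM in R-NSCP1, against 91495 RPM in ESC, where it was the second most abundant miRNA (85.7-fold lower, 84.6 to 86.8). miR-302a had 1059 RPM in R-NSCP1 and 55211 RPM in ESC. miR-302b had 854 RPM in R-NSCP1 and 45513 RPM in ESC, and miR-302c had 329 RPM in R-NSCP1 and 24946 RPM in ESC. The reads of these 4 miRNAs in R-NSCP1 were few beside ESC but far above the limit of 3 reads. miR-367, which is cut from the same cluster but carries the miR-92 seed, had 34.4 RPM in R-NSCP1 and 4678 RPM in ESC and was 136-fold lower (126 to 146), a larger difference than for any of the other 4. Summed, the cluster had 3344 RPM in R-NSCP1 and 221844 RPM in ESC.

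The miR-371/miR-373 cluster, also known from pluripotent cells, was lower by more than the miR-302/miR-367 cluster. Its 4 members were all under 10 RPM in R-NSCP1 and reached the minimum level only through ESC. miR-373 had 2.53 RPM in R-NSCP1 and 1503 RPM in ESC (594-fold lower, 455 to 791), the smallest ratio of all miRNAs with at least 100 RPM in either library. miR-371-5p had 64 reads in R-NSCP1 and 16940 reads in ESC (554-fold lower on the RPM scale), and miR-372 had 4.50 RPM in R-NSCP1 and 1989 RPM in ESC. miR-371-3p, from the other arm of its hairpin, rested on 4 reads in R-NSCP1 and 814 in ESC. miR-372 and miR-373 thus fell further below their ESC level than the miR-302 members that share their seed. miR-93, which also has this seed in the listed sequence and lies in the miR-106b-25 cluster within the gene MCM7, stood at 2469 RPM in R-NSCP1 and 2107 RPM in ESC. It was the most abundant miRNA of this seed in R-NSCP1, where the group summed to 5785 RPM, against 222772 RPM in ESC.

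The primate-specific chromosome 19 cluster (C19MC), known from placenta and early embryonic cells, was low in both stages and near the limit of detection in R-NSCP1. Its 26 listed miRNAs summed to 5.01 RPM in R-NSCP1 and 122 RPM in ESC. Only miR-512-3p was counted, with 4 reads in R-NSCP1 and 507 in ESC, and 10 of the 26 had 0 reads in R-NSCP1. Of these 10, miR-512-5p had the most reads in ESC, 99, and was at least 69.1-fold lower in R-NSCP1 against a limit of 3 reads. miR-516a-5p went against the sum of the cluster, with 28 reads in R-NSCP1 and 5 in ESC.

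Other large decreases were found in miRNAs of no list, in the miR-183 cluster and in the miR-29 family. miR-187 had 13.7 RPM in R-NSCP1 and 1515 RPM in ESC (111-fold lower, 98.6 to 125). miR-193b had 62.5 RPM in R-NSCP1 and 1408 RPM in ESC. miR-378a, whose hairpin lies in the gene of the coactivator PGC-1β in mammals, had 2032 RPM in R-NSCP1 and 14955 RPM in ESC, and miR-378d, with the same seed, 84.8 RPM in R-NSCP1 and 416 RPM in ESC. The decrease was thus not limited to the clusters of pluripotent cells. The 3 members of the miR-183 cluster, known from sensory organs and also read in stem cells, were all lower, against 31.1% of all counted miRNAs. Of these 3, miR-182 had 3569 RPM in R-NSCP1 and 16229 RPM in ESC. Of the miR-29 family, known for targets in the extracellular matrix, miR-29a had 108 RPM in R-NSCP1 and 1115 RPM in ESC, whereas miR-29c had 64.9 RPM in R-NSCP1 and 33.7 RPM in ESC.

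**Figure D3:**
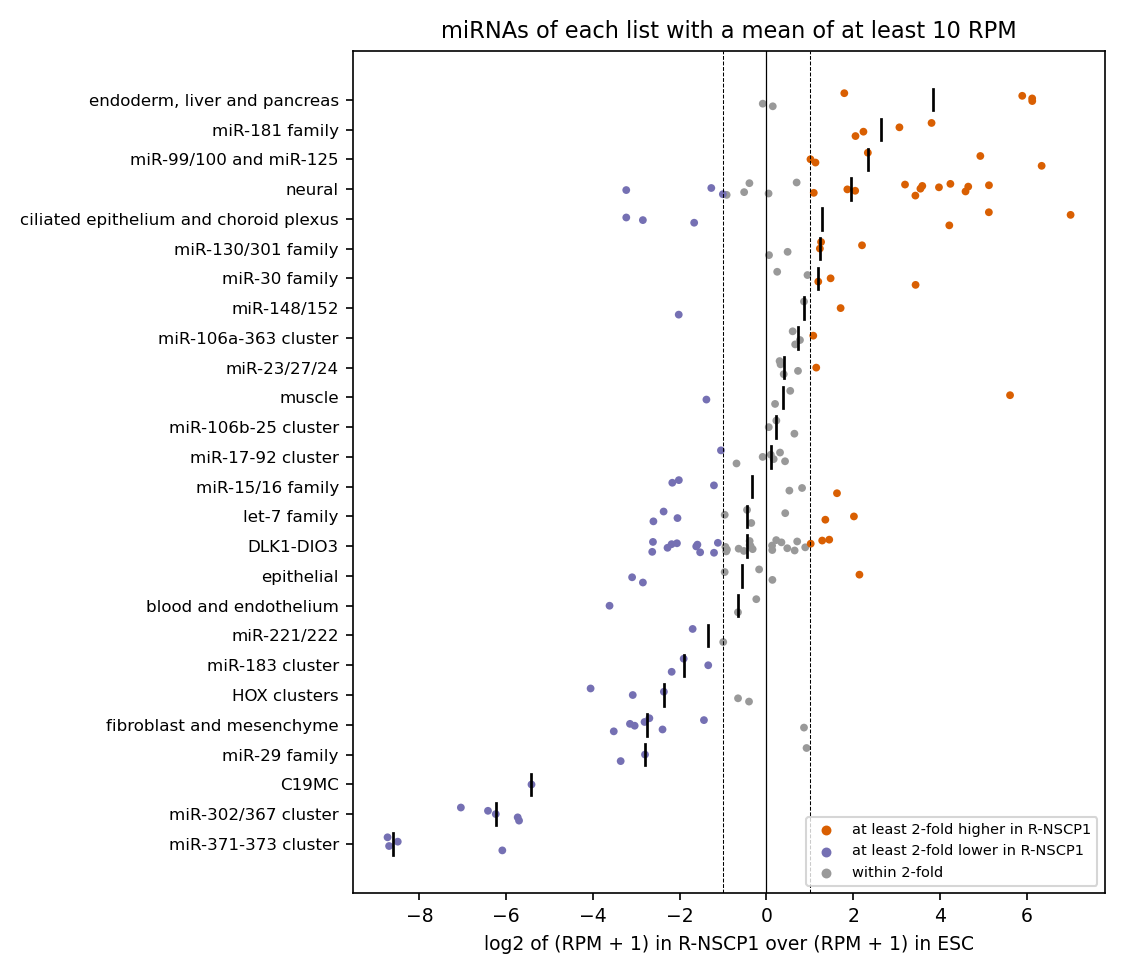
Log2 ratio of RPM + 1 in R-NSCP1 over RPM + 1 in ESC (horizontal) for the counted members of each of 26 lists (rows); each point is a miRNA, the black bar is the median of the list and the dashed lines are 2-fold. Medians run from -8.60 for the miR-371/miR-373 cluster to 3.85 for the endoderm, liver and pancreas list. All members of the miR-371/miR-373 cluster reached the mean of 10 RPM only through ESC. In the endoderm, liver and pancreas list, miR-216a, miR-216b and miR-217b reached it only through R-NSCP1.

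The miR-99/miR-100 and miR-125 miRNAs, which often share a primary transcript with a let-7 hairpin, were higher in R-NSCP1 in all 5 cases. Their median log2 ratio was 2.34, and 26.4% of all counted miRNAs were higher. miR-100 had 26963 RPM in R-NSCP1 and 331 RPM in ESC (81.5-fold higher, 78.8 to 84.4). miR-99b had 105555 RPM in R-NSCP1 and 20876 RPM in ESC, a ratio of 5.06. miR-99a had 1852 RPM in R-NSCP1 and 59.7 RPM in ESC, a ratio of 31.0. The 3 miRNAs carry the same seed, and the most abundant of them had the smallest ratio. miR-125a-5p had 11444 RPM in R-NSCP1 and 5226 RPM in ESC, and miR-125b had 2878 RPM in R-NSCP1 and 1423 RPM in ESC, so both were just past 2-fold. Both were under 2-fold when the miR-302/miR-367 cluster was left out of the column sums.

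The miR-30 family, widely expressed, had 128031 RPM in R-NSCP1 and 40075 RPM in ESC, and most of the difference came from miR-30a-5p, with 72492 RPM in R-NSCP1 and 6686 RPM in ESC (10.8-fold higher, 10.8 to 10.9). miR-30a-3p, from the other arm of the same hairpin, was 13.2-fold higher. miR-30c and miR-30b were 2.79-fold and 2.29-fold higher. miR-30e, whose hairpin lies in NFYC, stood at 21545 RPM in R-NSCP1 and 18139 RPM in ESC, and miR-30d at 18064 RPM in R-NSCP1 and 9372 RPM in ESC, so neither reached 2-fold.

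All 4 members of the miR-181 family, known from lymphocytes and brain, were higher in R-NSCP1, against 26.4% of all counted miRNAs. miR-181a-5p, the most abundant, had 23973 RPM in R-NSCP1 and 5774 RPM in ESC (4.15-fold higher). miR-181c had 2224 RPM in R-NSCP1 and 265 RPM in ESC, and its neighbour miR-181d had 1118 RPM in R-NSCP1 and 78.9 RPM in ESC. miR-181c and miR-181d were thus higher by larger ratios, 8.40 and 14.2, from lower levels. The other arm of miR-181a, miR-181a-3p, had 1905 RPM in R-NSCP1 and 37.9 RPM in ESC and was 50.3-fold higher (45.5 to 55.8). In the miR-130/miR-301 family 3 of 5 were higher, led by miR-301b with 14400 RPM in R-NSCP1 and 3125 RPM in ESC, while miR-130a had 8527 RPM in R-NSCP1 and 8182 RPM in ESC.

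Of 22 listed miRNAs known from neural cells, 20 were counted, of which 12 were higher in R-NSCP1, 3 lower and 5 within 2-fold, with a median log2 ratio of 1.96. Over all counted miRNAs, 26.4% were higher and 31.1% lower. Among the 12, at least miR-219 and miR-219-5p reached the minimum level only through R-NSCP1, with 6.67 and 4.46 RPM in ESC. The 22 names stand for 20 sequences, since miR-129 and miR-129-5p are the same sequence, as are miR-219 and miR-219-5p. miR-9, a regulator of neural progenitors and the most abundant of them, was among those within 2-fold, with 25993 RPM in R-NSCP1 and 16040 RPM in ESC (1.62, 1.61 to 1.63). miR-135a had 6427 RPM in R-NSCP1 and 266 RPM in ESC (24.2-fold higher), and miR-135b, with the same seed, 1946 RPM in R-NSCP1 and 470 RPM in ESC. miR-124a, abundant in neurons, had 916 RPM in R-NSCP1 and 83.8 RPM in ESC (10.9-fold higher). The listed miRNAs thus ranged from little difference to well over 10-fold. miR-153 had 838 RPM in R-NSCP1 and 70.6 RPM in ESC. miR-218, known from motor neurons and cut from introns of SLIT genes, had 2688 RPM in R-NSCP1 and 170 RPM in ESC. miR-219-5p, which promotes oligodendrocyte maturation, had 190 RPM in R-NSCP1 and 4.46 RPM in ESC. miR-138, which is enriched in brain, went the other way, with 66.6 RPM in R-NSCP1 and 634 RPM in ESC (9.52-fold lower), and miR-212 had 2648 reads in R-NSCP1 and 3068 in ESC, 2.42-fold lower on the RPM scale. miR-128a had 734 RPM in R-NSCP1 and 1386 RPM in ESC, and miR-128b had 650 RPM in R-NSCP1 and 1306 RPM in ESC. Their ratios of 0.529 and 0.498 lay on either side of the 2-fold limit.

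Among all miRNAs with at least 100 RPM in either library, the largest ratio was that of miR-449a, known from ciliated epithelia and choroid plexus. It had 825 RPM in R-NSCP1 and 5.39 RPM in ESC (153-fold higher, 117 to 203). Its neighbour miR-449b had 137 RPM in R-NSCP1 and 2.94 RPM in ESC. miR-204, abundant in choroid plexus and retinal pigment epithelium, had 25300 RPM in R-NSCP1 and 1360 RPM in ESC (18.6-fold higher) and alone took 2.53% of the R-NSCP1 reads. In the list of 6 miRNAs of ciliated epithelium and choroid plexus, 3 were higher and 3 lower. Among all counted miRNAs, 26.4% were higher and 31.1% lower. Of the higher members, miR-449a and miR-449b were under 10 RPM in ESC and reached the minimum level only through R-NSCP1. The sum of the list was 26533 RPM in R-NSCP1 and 3727 RPM in ESC. The lower members were miR-34c-5p, miR-34b and miR-211. At 4.22 RPM in R-NSCP1 and 36.6 RPM in ESC, miR-34b reached the minimum level only through ESC. Whether a subset of cells carried the higher members was not tested.

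Several other large ratios belonged to miRNAs within genes. miR-208b, whose hairpin lies in MYH7, a myosin gene of heart and slow muscle, had 115 RPM in R-NSCP1 and 1.37 RPM in ESC (84.1-fold higher). The other muscle miRNAs did not follow it. miR-1 had 2784 RPM in R-NSCP1 and 2425 RPM in ESC, and miR-133c had 37.0 RPM in R-NSCP1 and 98.1 RPM in ESC. The 6 muscle miRNAs in the table summed to 2955 RPM in R-NSCP1 and 2539 RPM in ESC, a ratio of 1.16 that turned to 0.909 without the miR-302/miR-367 cluster in the column sums, and miR-208a was at 1 read in R-NSCP1 and 0 in ESC. miR-592, within the glutamate receptor gene GRM8, had 493 RPM in R-NSCP1 and 6.18 RPM in ESC (79.8-fold higher), and miR-488, within ASTN1, a gene of neuronal migration, 424 RPM in R-NSCP1 and 21.5 RPM in ESC.

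Some miRNAs were read in R-NSCP1 and nearly absent from ESC. miR-216a and miR-216b, known from pancreas, had 1618 and 1616 reads in R-NSCP1 and 1 read each in ESC. For miR-216a the ratio was 773, with a counting interval from 139 to 30553. miR-217b, also known from pancreas, had 1251 reads in R-NSCP1 and 0 in ESC and was at least 199-fold higher against a limit of 3 reads. These miRNAs were at 58.6 to 75.8 RPM in R-NSCP1, below 1 in 10000 reads. miR-122a, the defining miRNA of liver, had 33 reads in R-NSCP1 and 1 in ESC, and miR-192, known from liver and gut, had 975 RPM in R-NSCP1 and 881 RPM in ESC. Of the 8 miRNAs in the list of endoderm, liver and pancreas, 6 were counted and 4 were higher, where 26.4% of all counted miRNAs were. Of the 4, miR-216a, miR-216b and miR-217b reached the minimum level only through R-NSCP1. The list had sums of 1306 RPM in R-NSCP1 and 931 RPM in ESC. The median log2 ratio of the 6 was 3.85, or 3.96 with miR-217b at its limit.

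Markers of fibroblasts and mesenchyme were lower in R-NSCP1 in 7 of 8 cases, where 31.1% of all counted miRNAs were. The 8 names stand for 7 sequences, since miR-199a and miR-199a-5p are the same. Their sum was 3106 RPM in R-NSCP1 and 23707 RPM in ESC. miR-143, abundant in smooth muscle and fibroblasts, had 1133 RPM in R-NSCP1 and 13005 RPM in ESC (11.5-fold lower, 11.3 to 11.6). miR-199a-3p, a miRNA of mesenchymal cells, had 526 RPM in R-NSCP1 and 4661 RPM in ESC, and miR-214, from the same transcript, had 1209 reads in R-NSCP1 and 3807 in ESC, 6.59-fold lower on the RPM scale. ESC culture held mouse feeder cells, and many mature miRNAs are identical in mouse and monkey. The part of the feeders in these decreases was not tested. None of the 8 was at 0 in R-NSCP1. miR-152, with 108 RPM in R-NSCP1 and 58.9 RPM in ESC, was the member that did not fall.

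Lists of other cell types held small and large ratios side by side. Of 7 epithelial miRNAs, 6 were in the table, and these had 648 RPM in R-NSCP1 and 1448 RPM in ESC. miR-200c and miR-141, from a shared transcript, were 8.75-fold and 7.33-fold lower, whereas miR-429 and miR-200a, from the other cluster of the family, had ratios of 0.889 and 1.10. Among 8 miRNAs of blood and endothelium, miR-142-5p, a blood miRNA, had 43 reads in R-NSCP1 and was 17.9-fold lower on the RPM scale, miR-451 had 2.30 RPM in R-NSCP1 and 2.26 RPM in ESC, and miR-144 had 0 in R-NSCP1 and 2 in ESC. Most of the defining miRNAs of blood were thus at or near the limit of detection in R-NSCP1. The 8 miRNAs summed to 2154 RPM in R-NSCP1 and 2913 RPM in ESC, a ratio of 0.740 that turned to 1.55 with reads as deposited, and miR-486-5p and miR-126 made up nearly all of it. Among the miRNAs of the HOX gene clusters, miR-10a had 3395 RPM in R-NSCP1 and 4485 RPM in ESC and miR-10b had 3262 RPM in R-NSCP1 and 5137 RPM in ESC, while miR-196a, miR-196b and miR-615-3p were at most 4.55 RPM in R-NSCP1 and at least 27.6 RPM in ESC.

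The let-7 family did not move as a whole. Of its 9 members, 2 were higher, 3 lower and 4 within 2-fold, where 26.4% of all counted miRNAs were higher and 31.1% lower. The counts of the family were thus near the shares of the table. The sum was 3949 RPM in R-NSCP1 and 4590 RPM in ESC, a ratio of 0.861 that turned to 1.80 with reads as deposited and was also above 1 with scaling to sequenced reads. let-7c had 1147 RPM in R-NSCP1 and 447 RPM in ESC (2.57-fold higher), and let-7e had 761 RPM in R-NSCP1 and 187 RPM in ESC (4.06-fold higher). Both higher members are neighbours of miR-99 hairpins, let-7c of miR-99a and let-7e of miR-99b. let-7i had 255 RPM in R-NSCP1 and 1324 RPM in ESC (5.19-fold lower), let-7d 45.9 RPM in R-NSCP1 and 193 RPM in ESC, and let-7b 20.9 RPM in R-NSCP1 and 132 RPM in ESC. Of the mRNAs that encode their repressors, LIN28A (LOC719865) was at 101 FPKM in R-NSCP1 and 1357 FPKM in ESC, 13.4-fold lower. LIN28B was at 25.5 FPKM in R-NSCP1 and 67.1 FPKM in ESC, 2.63-fold lower. FPKM summed to 491243 in R-NSCP1 and 999473 in ESC. With FPKM divided by these sums, both differences are smaller, and that of LIN28B is under 2-fold. The highest let-7 member, let-7c, took 0.115% of the reads in R-NSCP1.

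The miR-17-92 cluster and its paralogs, known as regulators of proliferation, held a large and mixed share. miR-92a had 69201 RPM in R-NSCP1 and 143134 RPM in ESC, a ratio of 0.483 that turned to a log2 ratio of 0.0171 with reads as deposited. The 6 other listed products of its cluster were within 2-fold, among them miR-17-5p with 9996 RPM in R-NSCP1 and 7424 RPM in ESC. miR-92a comes from 2 clusters, and its value is a mean over entries. In the paralogous cluster on the X chromosome, miR-20b was 2.11-fold higher and miR-363, miR-106a and miR-18b had ratios from 1.52 to 1.71. In the miR-106b-25 cluster, miR-106b, miR-93 and miR-25 had ratios from 1.04 to 1.56, and the sum of 18532 RPM in R-NSCP1 against 16596 RPM in ESC turned when the miR-302/miR-367 cluster was left out of the column sums (ratio 0.872).

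Seeds were the next level of description. The miRNAs of the table held 354 distinct seeds, and 36 seeds had at least 2 counted miRNAs of different sequence. All counted members were higher for 4 of these seeds and lower for 2, and 8 seeds had members in both directions. Among all counted miRNAs, 26.4% were higher and 31.1% lower. The lower seed of miR-196a and miR-196b, with sums of 6.98 RPM in R-NSCP1 and 55.7 RPM in ESC, reached the minimum level only through ESC. The seed of miR-92a and miR-92b, printed above, is an example of opposite directions. Its 6 miRNAs summed to 212322 RPM in R-NSCP1 and 225633 RPM in ESC, a ratio of 0.941 that turned to between 1.06 and 1.97 under 4 of 5 other scalings. Within this group, miR-92b had 116406 RPM in R-NSCP1 and 56205 RPM in ESC and supplied 54.8% of the group in R-NSCP1 and 24.9% in ESC. miR-92a supplied 32.6% in R-NSCP1 and 63.4% in ESC. These shares rest on the deposited mean for miR-92a. If miR-92a was counted 2 times, as a sum over 2 entries, it supplied 49.2% of the group in R-NSCP1 and 77.6% in ESC, so it led in both stages, and the ratio of the group was 0.763.

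The miR-34/miR-449 seed had a different leading miRNA in each stage. miR-449a supplied 63.8% of the group in R-NSCP1 and 0.227% in ESC. miR-34c-5p, a p53 target and also a miRNA of ciliated cells, had 235 RPM in R-NSCP1 and 2219 RPM in ESC and supplied 18.2% of the group in R-NSCP1 and 93.3% in ESC. miR-34a was within 2-fold. miR-204 was higher and miR-211, which has the same seed and lies in a related host gene, had 31.6 RPM in R-NSCP1 and 102 RPM in ESC. miR-148b had 4182 RPM in R-NSCP1 and 1277 RPM in ESC, whereas miR-148a had 10520 RPM in R-NSCP1 and 42728 RPM in ESC, so miR-148a was the more abundant in both stages. miR-146b-5p, a regulator of innate immune signalling, had 11574 RPM in R-NSCP1 and 2228 RPM in ESC, and miR-146a had 41.0 RPM in R-NSCP1 and 162 RPM in ESC.

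**Figure D4:**
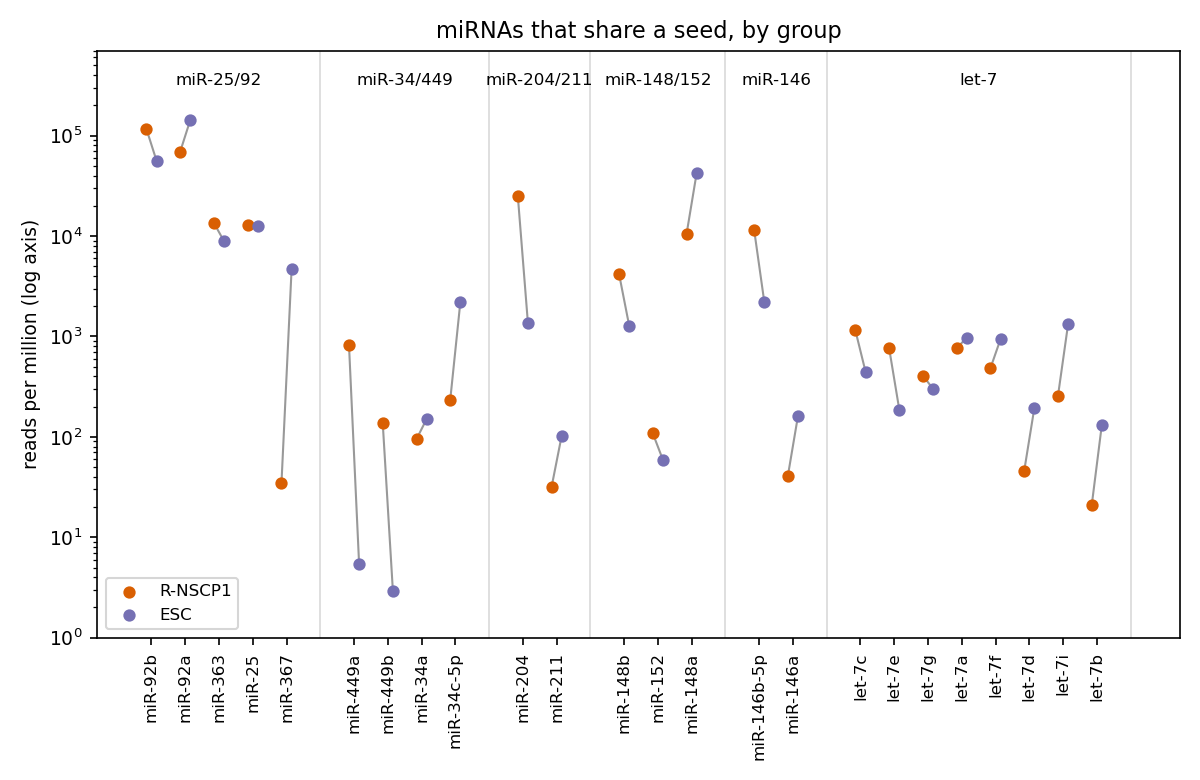
RPM (vertical, log axis) of miRNAs that share a seed, with R-NSCP1 as the left and ESC as the right point of each pair joined by a line. In each of the 6 groups at least 1 miRNA is higher in R-NSCP1 and at least 1 lower, for example miR-449a at 825 RPM in R-NSCP1 against 5.39 RPM in ESC and miR-34c-5p at 235 RPM in R-NSCP1 against 2219 RPM in ESC.

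Neighbouring hairpins were compared next, with 364 miRNAs placed at a single hairpin and neighbours taken as hairpins within 10 kb of the next. In 27 such clusters at least 2 hairpins were counted. All counted miRNAs were higher in 3 clusters and lower in 9, none passed 2-fold in 6, and 2 held both directions. Among all counted miRNAs, 26.4% were higher and 31.1% lower. The 3 clusters with all counted miRNAs higher were miR-181c with miR-181d, let-7c with miR-99a and miR-449a with miR-449b. Both miR-449a and miR-449b were under 10 RPM in ESC and reached the minimum level only through R-NSCP1. The clusters that were lower throughout included those of miR-302 with miR-367, miR-372 with miR-373, miR-143 with miR-145, miR-183 with miR-96 and miR-182, miR-200c with miR-141 and miR-34b with miR-34c. Both miR-372 and miR-373 were under 10 RPM in R-NSCP1 and reached the minimum level only through ESC. On the X chromosome, 9 miRNAs of the cluster from miR-532 to miR-502 had ratios from 1.71 to 3.76, and 7 of them passed 2-fold, with miR-660 at 969 RPM in R-NSCP1 and 306 RPM in ESC. The miRNAs of a transcript did not always have like ratios: let-7c was 2.57-fold and miR-99a 31.0-fold higher, and miR-99b, let-7e and miR-125a-5p were 5.06-fold, 4.06-fold and 2.19-fold higher.

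The 2 clusters with both directions lie in the imprinted DLK1-DIO3 region, whose miRNAs come from the maternal chromosome. Of 51 listed miRNAs of the region, 30 were counted, of which 3 were higher, 10 lower and 17 within 2-fold. Over all counted miRNAs, 26.4% were higher and 31.1% lower, so the share of lower members was near that of the table. The sum was 5245 RPM in R-NSCP1 and 9088 RPM in ESC, a ratio of 0.577 that turned to 1.21 with reads as deposited. miR-127 had 1552 RPM in R-NSCP1 and 3588 RPM in ESC, and miR-411 had 694 RPM in R-NSCP1 and 2092 RPM in ESC. miR-654-3p went the other way, with 703 RPM in R-NSCP1 and 288 RPM in ESC, as did miR-889 with 200 RPM in R-NSCP1 and 72.7 RPM in ESC.

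Both arms were counted for 30 hairpins. The ratios of the arms were within 2-fold of each other for 19 of them, and 20 had the same call on both arms. The arms of miR-301a were the only ones past 2-fold in opposite directions. Its abundant arm had 12639 RPM in R-NSCP1 and 5380 RPM in ESC, while miR-301a-5p had 0.890 RPM in R-NSCP1 and 66.8 RPM in ESC. The arms of miR-181a, with ratios of 4.15 and 50.3, were both higher but differed in size.

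Of 57 pairs of miRNA and host gene listed from human annotation, 37 had 1 FPKM row for the host in the mRNA libraries. Of these, 36 had a counted miRNA, over 31 hosts. The hairpin was found within the host in RefSeq for 35 of the 36, all but miR-33a with SREBF2. The values of miR-218, miR-103 and miR-7 are not whole and are thus means over entries. They may not be those of the hairpin in the listed host alone. Of 11 miRNAs that were higher in R-NSCP1, 10 had a host whose FPKM was at least 2-fold higher, where 23.1% of all 12613 FPKM rows were. Of the 11, miR-592, miR-208b, miR-338-3p and miR-885-5p were under 10 RPM in ESC and reached the minimum level only through R-NSCP1. miR-218 was 15.8-fold higher and SLIT2, an axon guidance gene, had 50.9 FPKM in R-NSCP1 and 1.54 FPKM in ESC. miR-204 was 18.6-fold higher and TRPM3, a cation channel gene, had 11.6 FPKM in R-NSCP1 and 1.14 FPKM in ESC. miR-592 was 79.8-fold higher and GRM8 had 9.67 FPKM in R-NSCP1 and 0.0326 FPKM in ESC. For these 3 pairs miRNA and host were higher together. miR-335 was 6.25-fold higher and MEST, an imprinted gene, had 331 FPKM in R-NSCP1 and 68.8 FPKM in ESC. The exception was miR-107 (2.31-fold higher), with its host PANK1, a pantothenate kinase gene, at 10.9 FPKM in R-NSCP1 and 6.13 FPKM in ESC.

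None of the 3 miRNAs that were lower, miR-877, miR-767-5p and miR-28, had a host past 2-fold in either direction. Of the 22 miRNAs within 2-fold, 19 had a host within 2-fold and 3 a host that was higher. FPKM summed to 491243 in R-NSCP1 and 999473 in ESC. With FPKM divided by these sums, all 11 hosts of the higher miRNAs were at least 2-fold higher, as were 18 of the 22 hosts of miRNAs within 2-fold and 53.8% of all rows, so the contrast between these sets of hosts was smaller under that scaling.

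**Figure D5:**
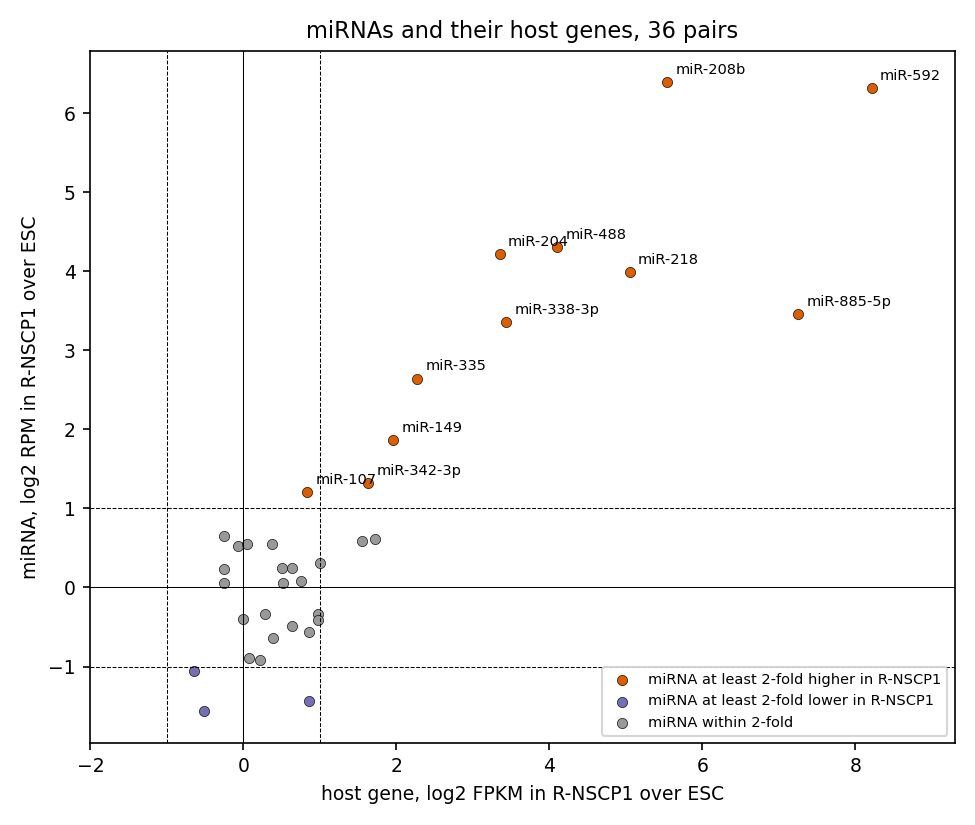
Log2 ratio of RPM of 36 miRNAs (vertical) against the log2 ratio of FPKM of their host genes (horizontal), both R-NSCP1 over ESC; each point is a pair, dashed lines are 2-fold and the 11 miRNAs that were higher are named. Of these 11, 10 lie to the right of the 2-fold line of the hosts, and miR-107 lies to its left.

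The sequences of the miRNAs differed little between the sets. Median GC content was 45.5% for the 79 that were higher, 47.6% for the 93 that were lower and 47.6% for the 127 within 2-fold, and the median length was 22 bases in each set. A T (U in the RNA) at the first base was listed for 47 of the 79 (59.5%), 44 of the 93 (47.3%) and 68 of the 127 (53.5%). Members of a family share sequence, so these counts are not independent.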

How the data were processed

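Per the labels and the study's methods, the authors removed adaptors and used Bowtie 2.0.2 to align single-end reads to miRBase (release 19, rhesus). They deposited expected counts, unscaled, averaged over the database entries that share a mature miRNA, and 39 miRNAs have values that are not whole. For mRNA, the authors deposited FPKM from TopHat and Cufflinks 2.0.2. The miRNAs and lists were chosen with earlier results of these data known.

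Here counts were scaled to RPM of their column sums (21341944 reads in R-NSCP1 and 10196819 in ESC). miRNAs with a mean of at least 10 RPM were counted and called at 2-fold. A count of 0 was set to 3 reads. Log2 ratios used RPM + 1. Intervals are exact conditional binomial intervals. Named miRNAs were the 10 most abundant of each library, the 10 largest and 10 smallest ratios among those with at least 100 RPM, up to 6 members per list and those the study names for these stages; others, such as miR-378a, miR-301a-5p, miR-146a and members of shared seeds, hairpins or hosts, were chosen after their values were seen. Host pairs were listed from human annotation. RefSeq, of another assembly than the authors', served to check that hairpins lay within hosts and to find neighbours within 10 kb. A miRNA was placed only if 1 hairpin matched, with no copy number in its name and whole counts. Alternatives used edgeR 4.0.16 and DESeq2 1.42.0 in R 4.3.3 (factors only, on rounded counts). Other steps used Python 3.11.15, numpy 2.4.6, scipy 1.17.1, pandas 2.3.3 and matplotlib 3.10.9, and were tested on simulated data. The other stages were not analysed here.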

Additional observations from a re-analysis of the deposited data

How the results depend on the processing

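With 1 library per stage, differences between cultures were not measured, and counting error is only part of the error. The scaling moved every ratio by the same log2 amount: 0.18 for TMM factors, 0.21 for DESeq2 size factors, 1.07 for reads as deposited, 0.80 for sequenced reads and -0.36 for column sums without the miR-302/miR-367 cluster. The number of miRNAs at least 2-fold higher was 153 with reads as deposited, 135 with sequenced reads, 50 with a minimum mean of 100 RPM and 39 at 4-fold. The number at least 2-fold lower was 58 with reads as deposited, 159 with no minimum and 55 with a minimum of 100 RPM. The median log2 ratio was 0.15 with TMM factors, 0.18 with DESeq2 size factors, 1.04 with reads as deposited, 0.77 with sequenced reads, -0.43 without the miR-302/miR-367 cluster, -0.17 with no minimum and 0.00983 with a minimum of 100 RPM. A minimum changes which miRNAs enter, and a scaling shifts all ratios alike. Of 84 named miRNAs past 2-fold, 62 were past it under all 5 other scalings, and miR-92a alone changed direction, to a log2 ratio of 0.0171 with reads as deposited. The summed level turned for 9 of the 27 groups examined (26 lists and the miR-92 seed) under at least 1 scaling. Counting miR-92a 2 times, an alternative chosen after seeing the data, gave a ratio of 0.763 for the miR-92 seed, against 0.941 as deposited. No paired analysis was possible because each stage had 1 library and no replicate number.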

Other observations

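In the table, 3 mature sequences were listed under a pair of names each, with different reads. The sequence named miR-129 had a ratio of 1.03 under that name and 2.14 under miR-129-5p. The sequence named miR-219 had ratios of 28.8 and, as miR-219-5p, 42.7, and that of miR-199a had ratios of 0.121 and, as miR-199a-5p, 0.142. The database entries behind each name are not known here, and why the reads differ was not tested. Within these 3 pairs the size of the ratio depended on the name read, and for miR-129 so did the 2-fold call.

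miR-1179, which belonged to no list, had 271 reads in R-NSCP1 and 0 in ESC and was at least 43.2-fold higher against a limit of 3 reads. miR-551b had 79.6 RPM in R-NSCP1 and 5.59 RPM in ESC, while miR-551a, with the same seed, had 4733 reads in R-NSCP1 and 1396 in ESC, a ratio of 1.62 on the RPM scale and thus within 2-fold. miR-1307-5p had 281 RPM in R-NSCP1 and 4315 RPM in ESC.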
